A study of Mus musculus with 6 samples.

Results

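The genes described here are 41 genes of DNA repair and the DNA damage checkpoint: checkpoint kinases, Fanconi genes, and genes of homologous recombination and end joining. They were taken by gene symbol from the deposited raw count table. The rule used no expression value, but the list was drawn up with earlier results of these data known. All 41 were found among the 38561 genes of the table, and all 41 passed the count filter that left 16495 genes. RNA came from the Nkx2-1 lineage of the telencephalon, chiefly the medial ganglionic eminence, where many cortical interneurons are born, in C57BL/6 mouse embryos at E11.5. There were 2 heterozygous libraries, from embryos with 1 floxed Magoh allele (Magoh lox/+) together with Nkx2.1-Cre and the ROSAloxSTOPloxTdTomato reporter. The 4 control libraries carried the same Cre and reporter without the floxed allele. Cre, and with it the reporter and any deletion of Magoh, is confined to cells with a history of Nkx2-1 expression, and tdTomato-positive cells were sorted before extraction. The MAGOH protein belongs to the complex that is left on mRNAs at exon junctions after splicing. The labels do not say whether each library is 1 embryo, so p-values measure the spread between these libraries, which may in part be technical.

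Double-strand breaks are sensed by the kinase ATM, and single-stranded DNA at stalled replication forks by ATR with its partner ATRIP. They activate the checkpoint kinases CHK2 and CHK1, which slow the cell cycle while the break is repaired. After replication, breaks are mended from the sister chromatid by homologous recombination, which needs end resection, the BRCA proteins and strand exchange. Ends can also be joined directly, with Ku and DNA-PK. Fanconi proteins unhook crosslinks and protect forks. Neural progenitors divide fast at this stage, and loss of several of these genes in mice is known to cause loss of progenitors or newborn neurons.

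Total counts were 41951182 and 49189360 in heterozygous libraries 1 and 2 and 37429290 to 44198702 in the controls, and each of the 41 genes had between 160 and 23520 reads in a library. Magoh reads came to 57.1 and 48.6 CPM in heterozygous libraries 1 and 2, against 68.1, 118, 63.6 and 74.3 CPM in controls 1 to 4, where CPM is the count relative to the TMM-scaled size of the library. Both heterozygous libraries were below every control, with a log2 fold change of -0.62 ± 0.27 (SE) (edgeR, adjusted p = 0.85). The Cre driver gene Nkx2-1 was present in every library, with 349 and 466 CPM in heterozygous libraries 1 and 2, and 339 to 562 CPM among controls. Heterozygous library 1 and control 2 stood apart from the other 4 libraries in 2 respects. The first was in reads of the sex chromosomes. Both had 0 reads from 4 Y-linked genes, against 3453 to 4291 in the others. The X-linked gene Xist reached 111 CPM (heterozygous library 1) and 94.2 CPM (control 2), while no other library exceeded 0.549 CPM. By these reads both libraries look female and the other 4 male. In both, long transcripts were low relative to short ones: the median deviation of genes of 8000 bases or more minus that of genes under 1000 bases was -0.34 log2 units in heterozygous library 1 and -0.79 in control 2, against 0.14 to 0.48 in the others. Because the median of the 41 merged exon lengths is 7186 bases, against 4077 over all tested genes, the counts over the 41 genes are also given within 2 sets of libraries. One set is heterozygous library 1 against control 2, and the other is heterozygous library 2 against controls 1, 3 and 4. Neither has replicates in both groups.

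Of the 41 genes, 39 had a log2 fold change below 0 (95.1%, against 53.9% of all tested genes), with a median of -0.35 against -0.03 over all tested genes. No single gene passed the test: with edgeR's quasi-likelihood test and Benjamini-Hochberg adjustment over all genes, 0 of 41 had an adjusted p under 0.05, as did 0% of all tested genes. At an unadjusted p under 0.05 there were 5 of 41 lower (12.2%, against 3.98% of all tested genes) and 0 higher (against 1.75%). The 5 were Prkdc, H2afx, Fanca, Fancb and Fancd2. DESeq2 also called 0 of 41, where it called 0.439% of all genes it tested lower and 0.0452% higher, and it gave 7 of 41 an unadjusted p under 0.05, all lower (17.1%, against 5.29% of all genes). For 11 of the 41 genes both heterozygous libraries lay below all 4 controls (26.8%, against 8.14% of all tested genes), and Lig4 was the 1 gene with both above (against 6.17%).

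**Figure D1:**
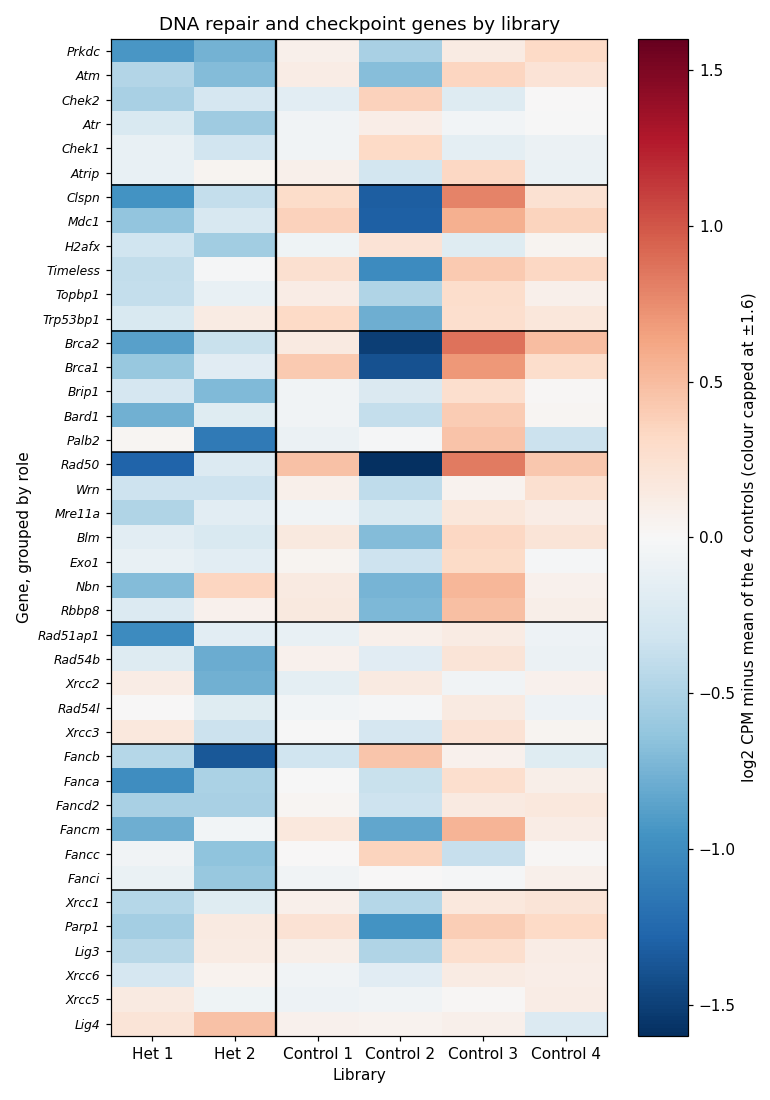
Level of each of the 41 genes in each library, as log2 CPM minus the mean of the 4 controls, with heterozygous libraries left of the vertical line and genes grouped by role between horizontal lines. Blue is lower and red higher than the control mean, and control 2 is blue for many of the genes that are also blue in heterozygous library 1.

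Of the 6 damage kinases and their partners, 3 were below all controls (against 8.14% of all tested genes). Prkdc, the catalytic subunit of DNA-dependent protein kinase that acts in end joining, stood at 19.4 and 21.9 CPM in heterozygous libraries 1 and 2, against 39.1, 25.8, 40.7 and 46.3 CPM in controls 1 to 4. Both heterozygous values were below the lowest control, which was control 2. The log2 fold change was -0.88 ± 0.25 (SE) (edgeR, adjusted p = 0.793), with the smallest p of the 41 genes. Atr (ENSMUSG00000032409), the kinase of stalled forks, stood at 30.5 and 24.3 CPM in heterozygous libraries 1 and 2, against 34.5, 38.7, 34.98 and 35.9 CPM in controls 1 to 4. The 4 controls lay close together and the groups did not overlap, with a log2 fold change of -0.39 ± 0.17 (SE) (edgeR, adjusted p = 0.85). Chek2, the effector kinase below ATM, had 8.48 and 10.1 CPM in heterozygous libraries 1 and 2, against 10.9, 15.7, 10.6 and 12.3 CPM in controls 1 to 4. Heterozygous library 2 lay just under the lowest control, library 1 lay further below, and the log2 fold change was -0.41 ± 0.24 (SE).

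Atm showed another arrangement, with 50.6 and 43.3 CPM in heterozygous libraries 1 and 2, against 75.9, 43.5, 88.7 and 81.3 CPM in controls 1 to 4. Control 2 was level with heterozygous library 2 and below library 1, while the other 3 controls were well above both, so the groups overlapped. Its log2 fold change was -0.62 ± 0.29 (SE) (edgeR, adjusted p = 0.85). Chek1, which acts below ATR at stalled forks, had 35.3 and 31.1 CPM in heterozygous libraries 1 and 2, against 36.99, 47.8, 34.4 and 36 CPM in controls 1 to 4. There control 2 was the highest library, and heterozygous library 1 lay between controls 3 and 4. Atrip was 1 of the genes lowest in control 2, and its groups overlapped (log2 fold change -0.06 ± 0.22 (SE)).

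Among mediators and fork proteins, H2afx (ENSMUSG00000049932) was the most abundant of the 41 genes per length and the only mediator below all controls. It encodes the histone variant whose phosphorylated form marks broken DNA, from an intronless gene. Its level was 378 and 322 CPM in heterozygous libraries 1 and 2, against 451, 552, 413 and 485 CPM in controls 1 to 4. Control 2 was the highest library and both heterozygous libraries were below all controls, with a log2 fold change of -0.44 ± 0.18 (SE) (edgeR, adjusted p = 0.85). Mdc1, the scaffold that binds phosphorylated H2AX, stood at 111 and 144 CPM in heterozygous libraries 1 and 2, against 223, 69.96, 257 and 222 CPM in controls 1 to 4. Control 2 was lowest and heterozygous library 1 next, and heterozygous library 2 was below the other 3 controls. Clspn, which carries the signal from ATR to CHK1, had the same order, at 31.4 and 46.7 CPM in heterozygous libraries 1 and 2, against 74.3, 24.3, 105 and 71.6 CPM in controls 1 to 4. The log2 fold changes of Mdc1 and Clspn were -0.60 ± 0.46 (SE) and -0.82 ± 0.50 (SE). Trp53bp1, which steers breaks towards end joining, stood at 223 and 291 CPM in heterozygous libraries 1 and 2, against 331, 154, 319 and 301 CPM in controls 1 to 4. Heterozygous library 2 lay just under controls 1, 3 and 4, and its log2 fold change of -0.11 ± 0.31 (SE) turned to 0.11 once length and GC trends were removed. Topbp1, the activator of ATR, and Timeless, a fork protection factor, also had their lowest value in control 2, with log2 fold changes of -0.27 ± 0.23 (SE) and -0.30 ± 0.37 (SE).

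The 5 genes of the BRCA complexes had log2 fold changes between -0.82 and -0.47. Brip1 was the 1 of them below all controls (against 8.14% of all tested genes). Brip1, a helicase that binds BRCA1, stood at 12.96 and 9.56 CPM in heterozygous libraries 1 and 2, against 14.99, 13.4, 18.9 and 15.8 CPM in controls 1 to 4, with heterozygous library 1 only just under control 2 and a log2 fold change of -0.49 ± 0.23 (SE). Brca1 had 29.8 and 40.01 CPM in heterozygous libraries 1 and 2, against 61.1, 17.3, 73.6 and 55.2 CPM in controls 1 to 4. Control 2 was the lowest library by a wide margin, and the other 3 controls were above both heterozygous libraries. Brca2, which acts with BRCA1 in homologous recombination, had 17.1 and 24.2 CPM in heterozygous libraries 1 and 2, against 34.5, 10.9, 56.9 and 43.7 CPM in controls 1 to 4, in the same order. For Brca1 and Brca2 the log2 fold changes were -0.57 ± 0.49 (SE) and -0.82 ± 0.55 (SE), with standard errors wide enough to reach 0 within 2 of them (edgeR, adjusted p = 0.988 and 0.948). With the presence of Y-linked reads as a covariate, which compares within the 2 sets of libraries, the values were -0.0669 for Brca1 and -0.27 for Brca2. They were likewise nearer to 0 for Mdc1 (-0.13), Rad50 (-0.31) and Clspn (-0.34). Other genes moved away from 0 with this covariate, among them Fancb (-1.09), H2afx (-0.51) and Xrcc2 (-0.43). In that fit 33 of the 41 genes were below 0 (against 54% of all tested genes), with a median of -0.25. Bard1, the partner of BRCA1 in its ubiquitin ligase, stood at 13.4 and 20.02 CPM in heterozygous libraries 1 and 2, against 21.9, 17.5, 30.4 and 23.4 CPM in controls 1 to 4. Heterozygous library 1 was the lowest there and heterozygous library 2 lay between the controls, with a log2 fold change of -0.48 ± 0.27 (SE) that was -0.21 without heterozygous library 1 and -0.81 without heterozygous library 2. Palb2, the bridge between BRCA1 and BRCA2, ranged over 3.87 to 8.63 CPM in the heterozygous libraries and 6.67 to 11.6 CPM in the controls.

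End resection genes showed no separation of the groups in any of the 7. Rad50, part of the MRN complex that opens broken ends, varied most, at 8.09 and 16.97 CPM in heterozygous libraries 1 and 2, against 27.4, 5.90, 35.2 and 26.6 CPM in controls 1 to 4. Control 2 and heterozygous library 1 were the 2 lowest libraries, and the log2 fold change of -0.92 ± 0.63 (SE) had the largest standard error of the 41 genes. It was -0.47 without heterozygous library 1 and -1.56 without heterozygous library 2. Mre11a, the nuclease of that complex, stood at 27.7 and 34.5 CPM in heterozygous libraries 1 and 2, against 37.4, 32.9, 44 and 42.02 CPM in controls 1 to 4, where heterozygous library 2 lay between control 2 and control 1 (log2 fold change -0.33 ± 0.19 (SE)). Nbn, its regulatory subunit, was level with the controls in heterozygous library 2, and its log2 fold change was -0.15 ± 0.39 (SE). Wrn, a helicase, had 11.9 and 11.9 CPM in heterozygous libraries 1 and 2, against 15.9, 11.3, 15.6 and 17.8 CPM in controls 1 to 4. Only control 2 was below the heterozygous libraries, by a small amount, and the log2 fold change was -0.35 ± 0.23 (SE). Blm, Exo1 and Rbbp8, which act in long-range resection or start it, had log2 fold changes of -0.26 ± 0.28 (SE), -0.16 ± 0.20 (SE) and -0.13 ± 0.31 (SE).

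Of 5 strand exchange genes, Rad51ap1 and Rad54b were below all controls (against 8.14% of all tested genes). Rad51ap1, which promotes strand exchange, stood at 7.83 and 13.98 CPM in heterozygous libraries 1 and 2, against 14.4, 16.7, 17.1 and 14.8 CPM in controls 1 to 4. Library 1 was far under the controls, which lay close together, library 2 was just under the lowest of them, and the log2 fold change was -0.53 ± 0.26 (SE). It was -0.16 without heterozygous library 1 and -1.01 without heterozygous library 2. Rad54b had 8.51 and 5.66 CPM in heterozygous libraries 1 and 2, against 10.3, 8.68, 11.3 and 9.24 CPM in controls 1 to 4, and 35.8% of its merged exons overlap the gene Fsbp on the same strand, so its log2 fold change of -0.48 ± 0.25 (SE) is uncertain. Xrcc2, which acts in homologous recombination, stood at 16.8 and 9.03 CPM in heterozygous libraries 1 and 2, against 13.9, 16.97, 14.9 and 16.2 CPM in controls 1 to 4, where library 1 was among the controls and library 2 was below them (log2 fold change -0.26 ± 0.27 (SE)). Rad54l and Xrcc3 overlapped the controls, with log2 fold changes of -0.09 ± 0.16 (SE) and -0.08 ± 0.24 (SE).

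Fanconi genes were the role with most genes below all controls, 4 of 6 (against 8.14% of all tested genes). Fanca, of the core complex, stood at 13.2 and 18.4 CPM in heterozygous libraries 1 and 2, against 26.1, 20.4, 31.7 and 28.1 CPM in controls 1 to 4. Every control was above both heterozygous libraries, with a log2 fold change of -0.75 ± 0.24 (SE) (edgeR, adjusted p = 0.793). Fancb, also of the core complex, had 6.08 and 3.25 CPM in heterozygous libraries 1 and 2, against 6.70, 11.3, 8.77 and 7.29 CPM in controls 1 to 4. This gene lies on the X chromosome, and control 2 was its highest library. Heterozygous library 2 was well under every control and library 1 just under the lowest, with a log2 fold change of -0.87 ± 0.35 (SE) (edgeR, adjusted p = 0.85). Fancd2 and Fanci encode the pair of proteins that the core complex marks with ubiquitin. Fancd2 stood at 20.4 and 20.3 CPM in heterozygous libraries 1 and 2, against 29.6, 23.04, 32.1 and 32.6 CPM in controls 1 to 4, and the heterozygous libraries were level with each other. Fanci had 32.7 and 23.2 CPM in heterozygous libraries 1 and 2, against 33.8, 35.3, 34.9 and 37.2 CPM in controls 1 to 4, with controls within 1.10-fold of one another and heterozygous library 1 just under them. The log2 fold changes were -0.53 ± 0.20 (SE) and -0.34 ± 0.19 (SE) (edgeR, adjusted p = 0.85 and 0.905). That of Fanci was -0.60 without heterozygous library 1 and -0.12 without heterozygous library 2. Exons of Fanca overlap Zfp276 over 10.5% of their length and those of Fanci overlap Polg over 15.95%, in both cases on the other strand, and without a stated strand setting these values are uncertain. In all, 12 of the 41 genes share exon sequence with a protein-coding gene. Values are likewise uncertain for Lig3 (25.07%, Rffl), Rad54l (15.36%, Lrrc41) and Trp53bp1 (15.04%, Tubgcp4), which overlap on the other strand. The same holds for Atrip, which overlaps Trex1 over 16.04% on the same strand. Fancc and Fancm overlapped the controls, with log2 fold changes of -0.35 ± 0.26 (SE) and -0.44 ± 0.38 (SE).

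The 6 end joining and strand break repair genes had a median log2 fold change of -0.13, the nearest to 0 of the 7 roles, and 4 of them were below 0. Lig4, the ligase that seals ends in end joining, was the only one of the 41 genes above all controls, at 22.8 and 27.3 CPM in heterozygous libraries 1 and 2, against 20.7, 20.6, 20.9 and 16.98 CPM in controls 1 to 4. Its log2 fold change was 0.34 ± 0.18 (SE) (edgeR, adjusted p = 0.902), and the gap to the highest control was smaller than the range of the controls for library 1. Xrcc5 (Ku80) stood at 41.2 and 35.4 CPM in heterozygous libraries 1 and 2, against 35.01, 35.8, 37.8 and 40.3 CPM in controls 1 to 4. Xrcc6 (Ku70) had 20.2 and 25.3 CPM in heterozygous libraries 1 and 2, against 23.4, 21.4, 26.7 and 26.2 CPM in controls 1 to 4. Neither separated the groups, with log2 fold changes of 0.04 ± 0.16 (SE) and -0.10 ± 0.19 (SE). Parp1, which binds single-strand breaks, stood at 271 and 434 CPM in heterozygous libraries 1 and 2, against 465, 203, 519.8 and 493 CPM in controls 1 to 4. Control 2 was lowest, heterozygous library 1 next, and heterozygous library 2 was under the other 3 controls by little, with a log2 fold change of -0.25 ± 0.38 (SE). Xrcc1, the scaffold of single-strand break repair, had 71.2 and 85.8 CPM in heterozygous libraries 1 and 2, against 104, 71.3, 110.1 and 113 CPM in controls 1 to 4. Heterozygous library 1 and control 2 were level there, and the log2 fold change was -0.34 ± 0.22 (SE). Lig3, its ligase, had a log2 fold change of -0.16 ± 0.25 (SE).

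**Figure D2:**
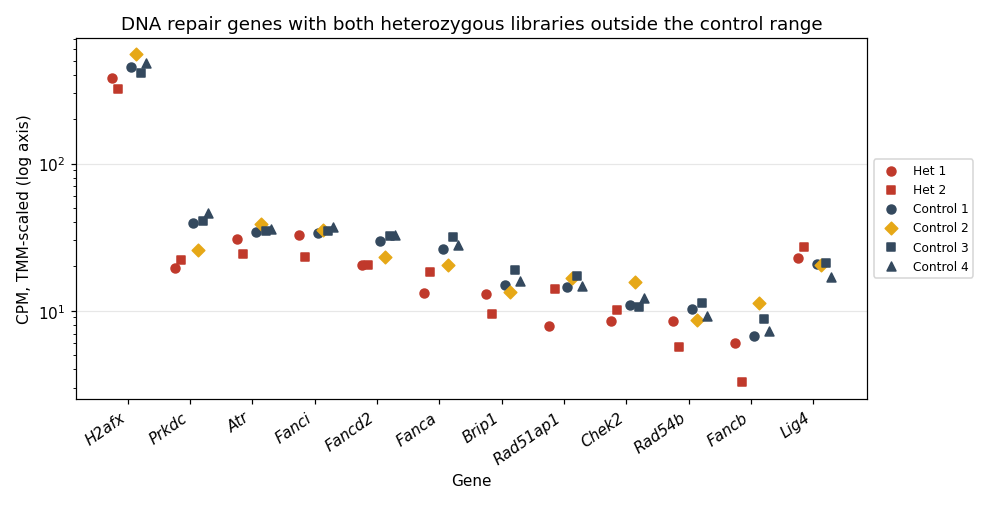
CPM on a log axis for the 12 genes whose 2 heterozygous libraries (red) both lie outside the range of the 4 controls (dark blue, with control 2 in yellow), ordered by control level with Lig4 last. In 11 genes both red points are under every control point, and in Lig4 both are above.

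The controls themselves varied widely in some of the 41 genes. The median coefficient of variation among controls was 19.3%, against 17.8% over 9751 tested genes with a control mean of at least 8.52 CPM. It was 53.1% for Brca2, 52.7% for Rad50, 48.4% for Clspn, 46.8% for Brca1 and 43.3% for Mdc1. It was 4.03% for Fanci, 5.22% for Atr and 6.35% for Xrcc5. For 18 of the 41 genes (43.9%, against 19.8% of all tested genes) heterozygous library 1 and control 2 were both below the other 4 libraries, a split that crosses genotype. By construction this split and the set of 11 genes below all controls share no gene. The 18 genes had a median merged exon length of 7169 bases, from 2533 bases for Nbn to 14164 bases for Trp53bp1, and the other 23 genes 7342 bases, from 1384 bases for H2afx to 23629 bases for Atr. After removal of each library's trend on length and GC content, 14 of the 41 genes still had this split (34.1%, against 14.1% of all tested genes).

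**Figure D3:**
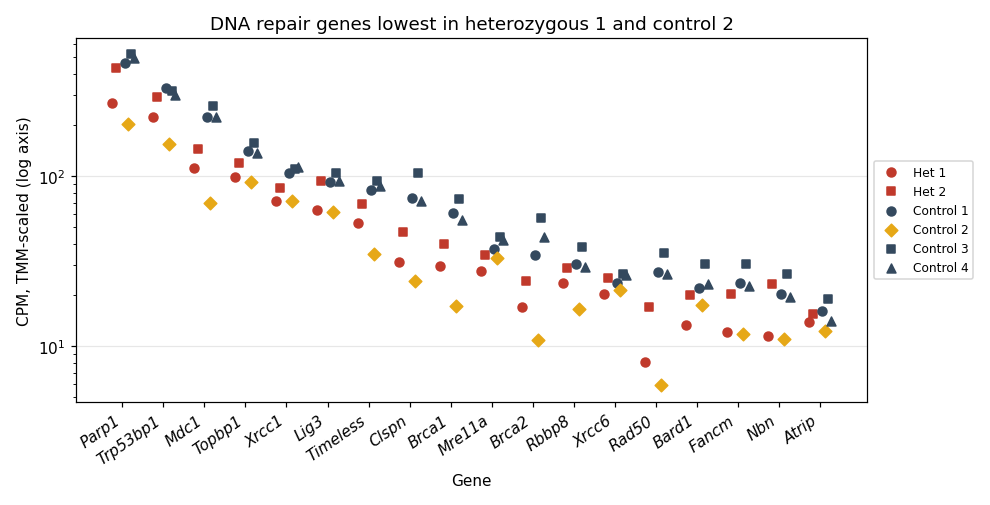
CPM on a log axis for the 18 genes that were lowest in heterozygous library 1 (red circles) and control 2 (yellow diamonds), ordered by control level. Heterozygous library 2 (red squares) and controls 1, 3 and 4 (dark blue) lie above both in all 18.

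The differences varied with merged exon length. Control 2 was below the mean of controls 1, 3 and 4 for 31 of the 41 genes (against 49.6% of all tested genes). This difference had a median of 0.08 log2 units in the 13 shortest genes, -0.45 in the middle 14 and -0.80 in the 14 longest. The log2 fold change between genotypes had medians of -0.25, -0.35 and -0.42 over the same 3 length classes. With length and GC trends removed, 35 of the 41 genes remained below 0 (85.4%, against 46.4% of all tested genes), with a median of -0.26 against 0.03 over all tested genes. Both heterozygous libraries were then below all controls for 10 genes (24.4%, against 7.97%). Of the 11 genes before the correction 8 were among these 10, namely Prkdc, Chek2, H2afx, Brip1, Rad54b, Fanca, Fancb and Fancd2, while Topbp1 and Xrcc1 joined them. Atr, Rad51ap1 and Fanci left. The corrected log2 fold changes of these were -0.22 ± 0.30 (SE) for Atr, -0.46 ± 0.26 (SE) for Rad51ap1 and -0.27 ± 0.18 (SE) for Fanci. For Atr the correction used 23629 bases of merged exons and took control 2 from 38.7 to 53.6 CPM. The other controls then stood at 27 to 33.7 CPM and heterozygous library 1 at 36.4 CPM. The change for Atr thus depends on that length, and whether the length suits its mRNA was not tested.

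**Figure D4:**
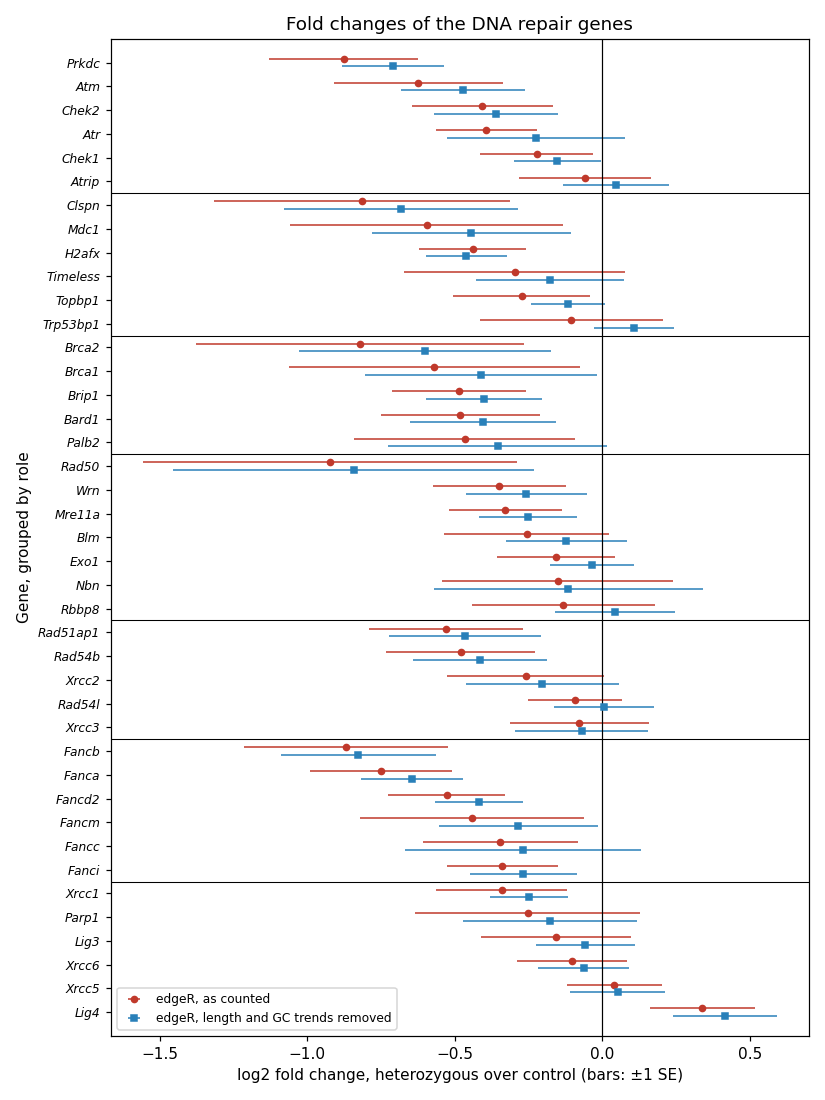
Log2 fold changes of the 41 genes, heterozygous over control, with bars of 1 standard error on each side, from edgeR on the counts as deposited (red circles) and with each library's length and GC trend removed (blue squares). Most points lie left of 0 in both fits, and the correction moves most of them towards 0.

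The 2 sets of libraries gave different pictures. In heterozygous library 2 against controls 1, 3 and 4, 39 of the 41 genes were below the mean of the controls (95.1%, against 52.5% of all tested genes), with a median of -0.43. Of the 41 genes, 35 were below each of the 3 controls (85.4%, against 35.2%). In heterozygous library 1 against control 2, 18 of the 41 genes were lower (43.9%, against 50.4% of all tested genes), with a median of 0.05. The 11 genes below all controls are by definition lower in both sets. Of these, Fancb differed by -0.89 between heterozygous library 1 and control 2 and by -1.201 between heterozygous library 2 and controls 1, 3 and 4, and Fanca by -0.63 in both. The 2 differences were -1.09 and -0.14 for Rad51ap1, and -0.41 and -0.93 for Prkdc. Of the 18 genes of the split across genotype, 13 were above 0 in the first set and below 0 in the second, with 0.78 and -0.65 for Brca1, 0.64 and -0.86 for Brca2, and 0.67 and -0.70 for Mdc1. Bard1, Mre11a, Xrcc1 and Xrcc6 were below 0 in both sets, and Nbn was above 0 in both. Leaving out control 2 alone raised the number of genes below all remaining controls to 29 (against 18.7% of all genes then tested). Heterozygous library 1 was then compared only with controls that had Y-linked reads and higher long transcripts relative to short ones. This count therefore does not separate genotype from those differences.

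**Figure D5:**
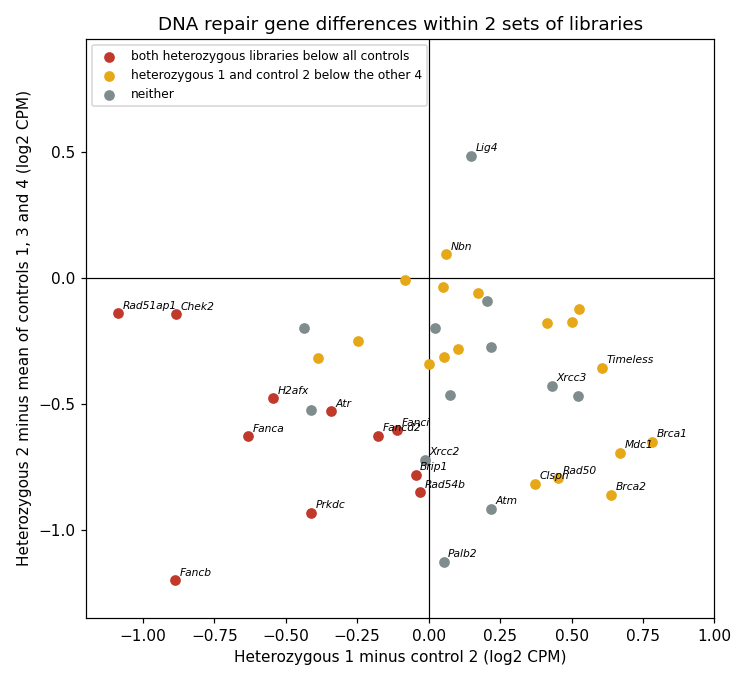
Difference in log2 CPM for each of the 41 genes, heterozygous library 1 minus control 2 on the horizontal axis and heterozygous library 2 minus the mean of controls 1, 3 and 4 on the vertical axis. Genes below all controls (red) lie in the lower left, genes of the split across genotype are yellow, with Brca1, Brca2, Mdc1 and Clspn in the lower right, and the other 12 genes are grey.

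Marker lists for cell state are given beside these results. Of 18 proliferation genes, 15 had a log2 fold change below 0 (against 53.9% of all tested genes) and 3 were below all controls (against 8.14%). With edgeR 0 passed, and 1 was lower at an unadjusted p under 0.05 (against 3.98%). Their summed level was 3454 and 3244 CPM in the heterozygous libraries, against 3766 to 4690 CPM in the controls. This sum weighs abundant genes most. Top2a had 300 and 330 CPM in heterozygous libraries 1 and 2, against 718, 281, 774 and 651 CPM in controls 1 to 4. Mcm2 had 361 and 354 CPM, against 299 to 357 CPM in the controls. All 10 postmitotic neuron markers had a log2 fold change above 0, and 7 were above all controls (against 6.17% of all tested genes). With edgeR 0 passed, and 6 were higher at an unadjusted p under 0.05 (against 1.75%). These markers summed to 3526 and 4198 CPM in the heterozygous libraries and 2054 to 3002 CPM in the controls, and 0 of the 10 was at 0 in the heterozygous libraries. Mki67, a mark of cycling cells, had 94.3 and 176 CPM in heterozygous libraries 1 and 2, against 567, 69.0, 807 and 481 CPM in controls 1 to 4, the same split as Brca1. The list as a whole did not follow this split. Control 2 was below the mean of controls 1, 3 and 4 for 9 of the 18 proliferation genes, and it was the highest library for Pcna (523 CPM) and Cdk1 (141 CPM). The 10 MGE markers summed to 1608 and 2787 CPM in the heterozygous libraries and 1027 to 2035 CPM in the controls, so heterozygous library 1 lay within the control range. The lowest sum was that of control 4. Of the 10, 9 had a log2 fold change above 0, where 53.9% of all tested genes were below 0. In heterozygous library 1 against control 2, 5 of the 10 were lower. In heterozygous library 2 against controls 1, 3 and 4, 0 were lower. In bulk RNA, fewer cycling cells and less of these mRNAs per cell cannot be told apart, and the part of cell composition in the result was not tested. Markers of other cell types varied between libraries. The 6 blood markers summed to 147 and 0.203 CPM in the heterozygous libraries and 11.9 to 47.6 CPM in the controls. The 8 microglial and macrophage markers summed to 10.2 and 0 CPM in the heterozygous libraries and 1.92 to 81.0 CPM in the controls, with Aif1 and Ptprc at 0 in both heterozygous libraries. The 8 endothelial markers summed to 9.50 and 7.91 CPM in the heterozygous libraries and 5.15 to 26.0 CPM in the controls, with Cldn5 and Emcn at 0 in both heterozygous libraries. The 8 surface ectoderm markers summed to 13.7 and 11.9 CPM in the heterozygous libraries and 15.2 to 22.7 CPM in the controls, with Krt14 at 0 in both heterozygous libraries. The part of these cells in the result was not tested.

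Per length, the control level of the 41 genes spanned a wide range. H2afx averaged 253 CPM per kb of merged exon in the heterozygous libraries and 343 in the controls, whose range was 298 to 399. Parp1 was next, with 66.6 CPM per kb in the heterozygous libraries and 79.4 in the controls (38.3 to 98.2), and its control range did not reach that of H2afx. Mdc1 had 17.2 and Trp53bp1 18.1 CPM per kb in the heterozygous libraries, against 26.0 and 19.5 in the controls, where their ranges overlapped. At the low end Palb2 had 0.851 CPM per kb in the heterozygous libraries and 1.18 in the controls, and Atr had 1.16 in the heterozygous libraries and 1.53 in the controls.

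Promoter sequence is shown because E2F factors, which switch on genes for DNA synthesis as cells enter S phase, are known to regulate several repair genes. RefSeq promoters (GRCm38.p6, 250 bases before to 50 after the start) were on hand for 31 of the 41 genes, as 33 sequences. The E2F words searched on both strands were TTTCCCGC, TTTGGCGC, TTTCGCGC and TTTGCCGC. They were found in the promoters of 7 genes, Bard1, Brca2, Chek2, Clspn, Mdc1, Topbp1 and Xrcc6, or 21.2% of the 33 sequences, against 2.26% of 32851 promoters of all genes and 3.65% of 13926 promoters of tested genes. Of the 7 genes, 6 belong to the 18 with the split across genotype (15 of which have a promoter here), and Chek2 is the 1 of the other 16 with a promoter. Only exact copies of the E2F words were counted, so promoters that hold variants of them are counted as without a match. The CCAAT box (CCAAT) was in 63.6% of the 33 sequences, against 37.4% of all, and the cell cycle homology element (TTTGAA or TTCGAA) in 6.06%, against 19.2% of all. Among promoters of tested genes the shares were 37.3% and 13.3%. In the promoters of the 41 genes 0 E2F matches overlapped one of these other words. Promoters of 3 genes of the split and of Chek2 follow, with the E2F match in capitals.
Brca2, chr5:150522371-150522670, plus strand: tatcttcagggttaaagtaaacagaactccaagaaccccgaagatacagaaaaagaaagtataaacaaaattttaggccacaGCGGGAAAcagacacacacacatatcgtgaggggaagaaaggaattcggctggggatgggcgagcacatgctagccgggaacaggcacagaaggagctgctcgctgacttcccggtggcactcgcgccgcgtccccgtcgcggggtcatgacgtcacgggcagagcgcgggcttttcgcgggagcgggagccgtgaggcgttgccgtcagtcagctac
Clspn, chr4:126556730-126557029, plus strand: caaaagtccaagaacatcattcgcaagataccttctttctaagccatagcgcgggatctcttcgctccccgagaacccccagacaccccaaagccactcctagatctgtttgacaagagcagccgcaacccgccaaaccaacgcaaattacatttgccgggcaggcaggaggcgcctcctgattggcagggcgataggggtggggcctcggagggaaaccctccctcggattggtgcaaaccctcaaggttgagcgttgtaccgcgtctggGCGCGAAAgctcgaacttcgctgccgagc
Mdc1, chr17:35841248-35841547, plus strand: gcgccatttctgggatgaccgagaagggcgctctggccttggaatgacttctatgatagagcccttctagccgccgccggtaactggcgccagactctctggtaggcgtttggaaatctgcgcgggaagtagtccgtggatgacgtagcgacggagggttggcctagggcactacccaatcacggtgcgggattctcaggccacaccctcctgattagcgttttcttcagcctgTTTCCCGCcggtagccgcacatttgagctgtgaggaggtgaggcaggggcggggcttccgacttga
Chek2, chr5:110839733-110840032, plus strand: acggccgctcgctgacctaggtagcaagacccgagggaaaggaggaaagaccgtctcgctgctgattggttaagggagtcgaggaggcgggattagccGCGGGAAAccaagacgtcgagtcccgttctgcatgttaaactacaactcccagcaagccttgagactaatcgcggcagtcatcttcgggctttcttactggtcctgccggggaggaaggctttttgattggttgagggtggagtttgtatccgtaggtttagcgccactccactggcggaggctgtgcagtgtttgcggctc
In Brca2 and Chek2 the match is the reverse complement of TTTCCCGC, upstream of the start, and in Mdc1 it is TTTCCCGC itself. In Clspn the match lies downstream of the start. Brca2, Clspn and Mdc1 were lowest in control 2, whereas Chek2 was highest there. Of the genes with a match not shown, Topbp1 was lowest in control 2, but Bard1 and Xrcc6 were lowest in heterozygous library 1. A match is a description of these letters and not evidence of binding.

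Other repair pathways had medians nearer to that of all genes. Over 98 tested genes of neighbouring repair pathways, leaving out the p53 targets and cell cycle targets given last, 73 had a log2 fold change below 0 (74.5%, against 53.9% of all tested genes), with a median of -0.11. None passed edgeR or DESeq2, 0 had an edgeR unadjusted p under 0.05, and 10 were below all controls (against 8.14% of all tested genes). Of 12 clamp, clamp loader and RPA genes, 11 were below 0, with Wdhd1, a fork scaffold, at 46.7 and 41.3 CPM in heterozygous libraries 1 and 2, against 54.3, 50.3, 62.1 and 59.1 CPM in controls 1 to 4. Among other Fanconi genes 8 of 8 were below 0, with a median of -0.20, and 0 were below all controls. For mismatch repair 6 of 7 were below 0.

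Nucleotide excision repair stood at the level of all genes, with 7 of 13 below 0 and a median of -0.00157. Base excision repair had 8 of 13 below 0, and Mutyh, a glycosylase of oxidised DNA, was at 4.46 and 3.44 CPM in heterozygous libraries 1 and 2, against 4.50, 7.65, 6.39 and 6.98 CPM in controls 1 to 4, with library 1 level with control 1. Translesion synthesis had 5 of 9 below 0, and Rev3l, the catalytic subunit of a bypass polymerase, had the split of Brca1, at 25.9 and 30.3 CPM in heterozygous libraries 1 and 2, against 56.4, 19.5, 65.3 and 46.9 CPM in controls 1 to 4. Of 10 genes of ubiquitin signalling at breaks 7 were below 0, and Rif1, the partner of 53BP1, had 41.98 and 53.1 CPM in heterozygous libraries 1 and 2, against 79.6, 37.4, 96.4 and 79.7 CPM in controls 1 to 4, again lowest in control 2. Other end joining genes were below 0 in 8 of 9, and resolution and helicase genes in 9 of 12. Of these 12, 4 were below all controls (against 8.14% of all tested genes). Checkpoint targets in the cell cycle were below 0 in 8 of 8. Wee1, the kinase that holds cells before mitosis, stood at 50.9 and 38.8 CPM in heterozygous libraries 1 and 2, against 57.4, 66.2, 55.2 and 57.1 CPM in controls 1 to 4, with both heterozygous libraries below every control. In contrast, of 14 p53 targets that act in repair or arrest, 12 were above 0 with a median of 0.16, and 5 were above all controls (against 6.17% of all tested genes). With edgeR 0 passed, and 5 were higher at an unadjusted p under 0.05 (against 1.75%). DESeq2 called 3 of the 14, all higher (against 0.0452% of all genes it tested). Cdkn1a, which encodes the inhibitor p21, stood at 16.9 and 28.3 CPM in heterozygous libraries 1 and 2, against 4.64, 4.42, 10.7 and 4.50 CPM in controls 1 to 4. Both heterozygous libraries were above every control, with a log2 fold change of 1.90 ± 0.41 (SE) (edgeR, adjusted p = 0.793). DESeq2 called this gene, with an adjusted p of 0.0125.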

How the data were processed

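RNA from sorted cells of 6 libraries was sequenced after a NuGEN mRNA library preparation, per the labels' protocols. The submitters' processing notes name Trim Galore, STAR, HTSeq and mm10. The authors deposited raw read counts per gene, which were used for every main result, and a table of counts divided by size factors, a normalized signal used in 1 alternative. The labels give neither the strand setting nor the annotation of the counting.

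The 2 heterozygous and 4 control libraries were compared with edgeR 4.0.16 (R 4.3.3) on the deposited counts: filterByExpr, TMM scaling, robust quasi-likelihood fit, and Benjamini-Hochberg adjustment over 16495 genes with a threshold of 0.05. The code was tested on simulated data. Differences between single libraries used log2 CPM with a prior count of 2. Merged exon length and GC content came from GENCODE M21, known for 98.6% of tested genes, and trends were removed by loess with a span of 0.5. DESeq2 1.42.0 and limma 3.58.1 served as alternatives. The 41 genes and all gene lists were chosen with earlier results of these data known. Values in every library are given for 14 genes fixed by name, for the 3 genes of each role with the smallest p, and for those with both heterozygous libraries outside the control range. Some genes of the neighbouring pathways are not reported here.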

Additional observations from a re-analysis of the deposited data

Results flagged for a closer look

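In 2 of the 41 genes 1 control stood far from the other 3 by Dixon's criterion, which chance meets in about 1 in 20 groups. Lig4 was low in control 4, at 17.0 CPM, against 20.6 to 20.9 CPM in the other controls. Timeless was low in control 2, at 34.7 CPM, against 83.5 to 93.3 CPM in the other controls.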

How the results depend on the processing

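Under 18 alternatives 0 of the 41 genes passed, and the median log2 fold change lay between -0.42 and -0.25 (-0.42 to -0.29 with single libraries left out). The number of genes below all controls ranged from 11 to 29 with 1 library left out: 29 without control 2 (18.7% of all genes) and 17 without heterozygous library 1 (22.2%). It was 35 without both (34.3%). Fewer libraries to lie below make such counts larger by construction.

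Of 504 values for 28 named genes 11 reversed, in 5 genes. With single libraries left out the range was -0.28 to 0.0615 for Xrcc6, -0.32 to 0.0871 for Trp53bp1, -0.64 to 0.0598 for Parp1, -0.0618 to 0.14 for Xrcc5 and -0.76 to 0.12 for Xrcc2. Without control 2 and heterozygous library 1 together, Xrcc6 stood at 0.00152 and Xrcc5 at -0.0820. With Y-linked reads as a covariate, Trp53bp1 stood at 0.14 and Parp1 at 0.0622, and with length and GC trends removed Trp53bp1 stood at 0.11. The cause was not tested. Of the 28 log2 fold changes, 14 moved by over 1.5 times without heterozygous library 1, 16 without heterozygous library 2, 2 to 6 without 1 of the controls, 10 with the Y-linked covariate and 3 with length and GC trends removed.

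With the number in the library code as a replicate block, 36 genes were below 0, the median was -0.34, 13 of the 28 moved by over 1.5 times and 0 of the 41 genes passed. Xrcc6 stood at 0.11. Only control 1 and heterozygous library 2 share a number across genotypes, and what it marks is not stated, so it is not taken as a pairing.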
